A study of Mus musculus with 2 samples.

Results

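The airway genes Scgb1a1, Scgb3a2, Cbr2, Hp, Upk3a, Wfdc2, Krt19 and Foxj1 were followed in single-cell RNA sequencing of sorted fetal mouse lung cells. They are 8 of the 32285 gene rows of the deposited matrix and were taken by symbol. They were chosen by their UMI counts in these same barcodes, as airway epithelial genes seen in a few of them and, read as free RNA, elsewhere. Their levels by class are therefore a description. All mice were wild-type C57BL/6J, with mothers aged 9 weeks. Drinking water held dexamethasone (DEX, a synthetic glucocorticoid) at 1.3 µg/ml for the treated mothers and phosphate-buffered saline (PBS) for the controls, from gestation day 12 until the fetal lungs were collected at day 18. The sort kept viable cells with CD45 and ST2 on their surface and no lineage marker, a gate meant for group 2 innate lymphoid cells (ILC2s). All litters shared 1 pair of RNA and hashtag libraries. Each litter was a pool of fetuses (8 for DEX-1, then 9 for DEX-2, and for the controls 5 for PBS-1 against 8 for PBS-2), so single fetuses could not be followed. The litter was the replicate (n = 2 per group). The number of mothers in each group followed the 4 hashtags, the labels and the methods, although a legend in the paper states fewer.

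Airway secretory cells, also called club cells, line the conducting airways and release small proteins into the lumen. Ciliated cells lie among them and move the airway fluid by beating cilia. Neither is a leukocyte, and CD45, encoded by Ptprc, is the leukocyte antigen used in the sort.

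Scgb1a1 encodes the main club cell secretory protein and Scgb3a2 a related secretoglobin of the small airways. Cbr2 is a carbonyl reductase abundant in club cells, Hp encodes haptoglobin, which binds free hemoglobin, and Upk3a a uroplakin that marks a subset of club cells beside neuroendocrine bodies. Wfdc2 is a secreted WAP-domain protein of many epithelia, Krt19 a keratin of simple epithelia and Foxj1 the transcription factor that switches on genes of motile cilia. On the mouse build GRCm38 (GENCODE M21), Scgb1a1 lies on chromosome 19 from 9083636 to 9087958 on the minus strand and Scgb3a2 on chromosome 18 from 43764289 to 43767399 on the plus strand. Cbr2 (120729489 to 120732114), Foxj1 (116330704 to 116335399) and Krt19 (100140810 to 100148665) all lie on chromosome 11 on the minus strand. Hp lies on chromosome 8 from 109575128 to 109579172 on the minus strand, Upk3a on chromosome 15 from 85017141 to 85022547 on the plus strand and Wfdc2 on chromosome 2 from 164562413 to 164568510 on the plus strand. All are annotated as protein coding.

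Dexamethasone acts through the glucocorticoid receptor, so the 250 bases before the annotated start were searched for its DNA site in the 3 genes with a RefSeq start sequence, Upk3a, Cbr2 and Wfdc2. The windows of Cbr2 and Wfdc2 are not printed, as they overlap annotated transcripts. The window of Upk3a is printed and held the only match of the 3. It spans chr15:85016891-85017140 on the plus strand (RefSeq, GRCm38.p6), with the match to a CCAAT box, read on the other strand, in capitals:

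Upk3a: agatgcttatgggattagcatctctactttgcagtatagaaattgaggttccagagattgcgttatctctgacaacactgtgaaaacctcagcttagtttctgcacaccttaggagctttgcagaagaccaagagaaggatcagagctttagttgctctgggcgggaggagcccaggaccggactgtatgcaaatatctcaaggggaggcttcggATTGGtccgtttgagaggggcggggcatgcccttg

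The CCAAT box (CCAAT, both strands) lay 35 bases before the start and was held by 34.5% of the 27025 RefSeq windows of the same length. The other letters searched, on both strands, were AGAACA of the glucocorticoid receptor (16.2% of windows, and contained in the next motif), its palindromic form, in which that motif meets its reverse complement across NNN (1 window), the forkhead core TGTTTAC (3.09%) and the TATA box TATAAA (13.0%). None of these was found in the windows of Upk3a, Cbr2 and Wfdc2, which says only that the letters are not there.

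The 10409 barcodes that passed the filters held 118835337 gene UMIs (unique molecular identifiers, each counting 1 captured RNA molecule). Of these barcodes 7268 carried a single hashtag (singlets, 1737 to 1890 per litter with 18665955 to 23660294 UMIs), 736 carried several and 2405 carried none. Scgb1a1 gave 91332 UMIs, but 84.1% of them came from 50 barcodes and 97.8% from 100. Scgb3a2 was nearly as concentrated, with 97.6% of 54370 UMIs in 100 barcodes. Foxj1 (1760 UMIs) and Upk3a (962 UMIs) were found in 101 and 83 barcodes. Cbr2, Wfdc2 and Krt19 were spread wider, with 10 or more UMIs in 645, 1170 and 969 barcodes, and Hp was in between with 209.

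Cell classes were rebuilt by clustering with the 8 genes left out, and named from markers. The epithelial-like class held 1310 barcodes without the multiplets, among them 43 in a subcluster named airway secretory-like and 59 in one named ciliated-like. The secretory-like subcluster had 3 genes of its own marker list (Cyp2f2, Chad and Lypd2) among its 10 leading genes, but 4 others of the 10 also led basophil or mast-like clusters, Ccl3, Csf1 and Ccl9 in one and Plac8 in another. The ciliated-like subcluster was led by Dynlrb2, Tppp3 and Ccdc153, which serve cilia, and its median barcode had 18 or 17 of the 20 ciliated markers, depending on the split described below.

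Levels are given as UMIs per 1000000 UMIs of a class (UPM), a description with no test, with exact Poisson 95% intervals that cover counting error only. Scgb1a1 reached 31365 (30966 to 31767) in the secretory-like subcluster and 22903 (22673 to 23135) in the ciliated-like one. The next levels were 1789 and 892 in subclusters 9, named basophil or mast-like, and 0. There 3 of 61 and 19 of 233 barcodes held 3 or more UMIs, and the rest of the epithelial-like subclusters stayed between 6.40 and 58.1. Scgb3a2 followed the same order at the top, with 18092 and 14164 UPM. Hp stood at 4792 and 4115 in the same places. Among the other named classes Hp was highest in macrophage or monocyte-like barcodes at 266 UPM, where 91 of 272 barcodes had a UMI, and reached 94.4 in mesenchymal-like ones.

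Cbr2 was not limited to the airway subclusters. It stood at 12423 UPM in the secretory-like and 6468 in the ciliated-like subcluster, and at 1093, 1113 and 961 in subclusters 0, 2 and 3, in which the 7 most widespread markers of alveolar type 2 cells, the makers of surfactant, were seen in 97.9 to 98.8% of barcodes on average. In the subcluster named AT1-like, for alveolar type 1 cells, Cbr2 stood at 31.2. Wfdc2 kept between 573 and 1228 UPM in all epithelial-like subclusters outside the airway, against 4495 and 4217 in the secretory-like and ciliated-like ones, where it was seen in every barcode. Krt19 turned this order round, with its highest level in the AT1-like subcluster at 2401 (2342 to 2462) and 1042 and 733 in the airway subclusters. Outside the epithelial-like class, an unnamed cluster of 395 barcodes held 12.9, 16.8 and 23.4% of all Cbr2, Wfdc2 and Krt19 UMIs. Its most widespread endothelial and epithelial markers were seen in 90.1 and 86.7% of barcodes on average.

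Foxj1 was the most restricted. The ciliated-like subcluster held 83.4% of all Foxj1 UMIs and every one of its 59 barcodes had at least 3, at 884 UPM, whereas the secretory-like subcluster held 1 UMI in all. Upk3a stood at 334 UPM in the secretory-like and 190 in the ciliated-like subcluster. Elsewhere 1 barcode of litter DEX-2, in a subcluster led by mesenchymal genes, carried 33 Upk3a UMIs with 637 of Scgb3a2 and only 7 of Scgb1a1.

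**Figure D1:**
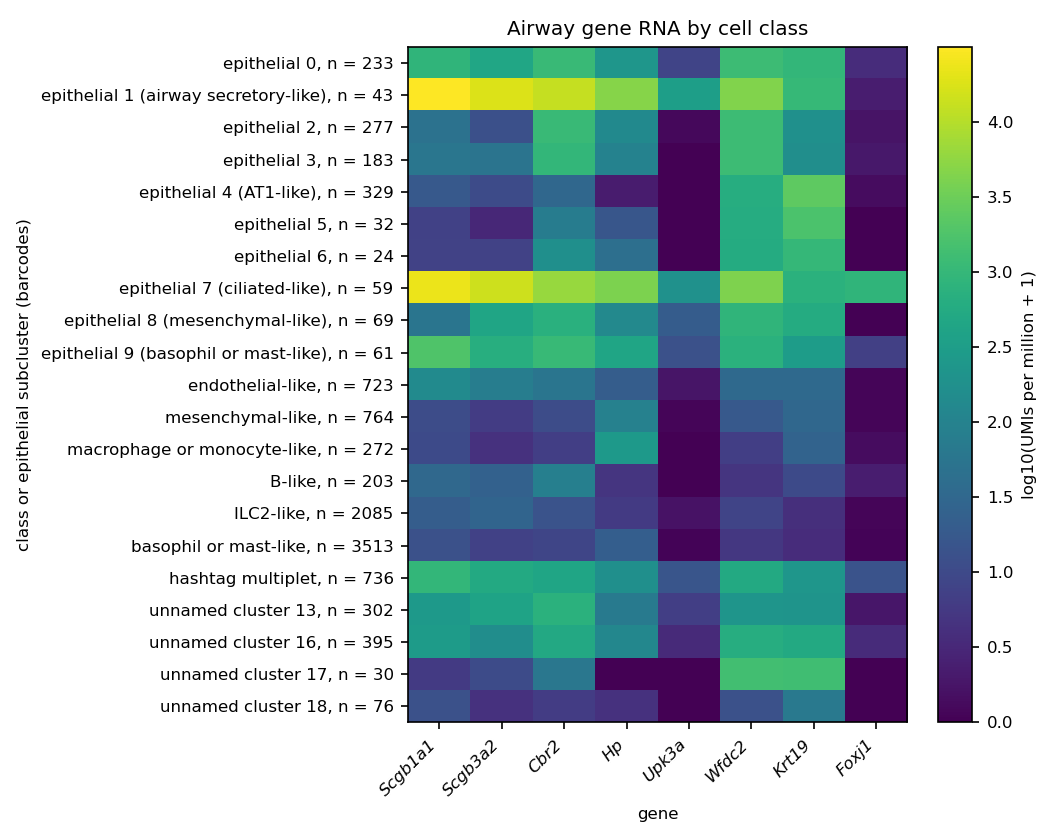
Level of each gene (columns) in each epithelial-like subcluster, other class and the hashtag multiplets (rows, n barcodes), as log10 of UPM plus 1 on a colour scale. The bright rows for Scgb1a1 and Scgb3a2 are the airway secretory-like and ciliated-like subclusters, at 31365 and 22903 Scgb1a1 UPM, and Krt19 is brightest in the AT1-like row.

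Within the secretory-like subcluster, 33 barcodes held 20 to 2319 Scgb1a1 UMIs with a median of 328. The other 10 held 0 or 1. Those 10 had 0 Scgb3a2 UMIs of 226362 UMIs in all, which allows up to 13.3 UPM, and at least 2 Ccl3 UMIs each, with a median of 18.5. Cpa3, a protease gene of mast cells, was seen in 9 of the 10 and in 4 of the 33, and the 11 basophil or mast cell markers summed to 2801 UPM in the 10, with a median of 6 markers seen, against 220 UPM and a median of 0 in the 33. By litter, DEX-1 held 5 of them, DEX-2 held 4 and PBS-1 held 1. Near copies, described below, are counted separately in this. They are barcodes of 13177 and 11934 UMIs in DEX-1 and of 6693 and 8523 UMIs in DEX-2. Ptprc was seen in 2 of the 33 and in 5 of the 10, and Epcam, a surface protein of epithelia, in 32 of the 33 and in all 10.

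Upk3a split the 33 further. It was at 5 or more UMIs in 12 barcodes, up to 42, at 0 or 1 in 19 and in between in 2. These counts also take near copies, described below, separately, such as pairs with 42 and 12, 24 and 26, and 2 and 2 Upk3a UMIs. A high Scgb1a1 count did not imply Upk3a, as barcodes with 2319 and 2119 Scgb1a1 UMIs had 0.

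The ciliated-like barcodes fell apart by Scgb1a1 with no barcode between 13 and 51 UMIs, a split drawn after the values were seen. Above it were 27 barcodes with a median of 797 Scgb1a1 UMIs, and below it 32 with a median of 1. Foxj1 did not separate them, with medians of 25 and 24 UMIs. Relative to all RNA, Foxj1 was lower above the split, at 608 UPM against 1448.5, and the 20 ciliated markers summed to 10946 and 23523 UPM.

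The genes of secretory cells followed Scgb1a1 across this split. Cbr2 had a median of 298 UMIs above and 13.5 below, and Hp 177 and 10.5. Upk3a was present in 20 of the 27 barcodes above and in 0 of the 32 below, which allows up to 5.50 UPM against 283 above and limits barcodes with a UMI, not barcodes that express the gene. The barcodes above were also deeper, with a median of 38460 UMIs against 15563.5, and 21 of the 27 but only 8 of the 32 carried a single hashtag. The part of depth in these values was not tested, and doublets of the same litter had not been removed.

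**Figure D2:**
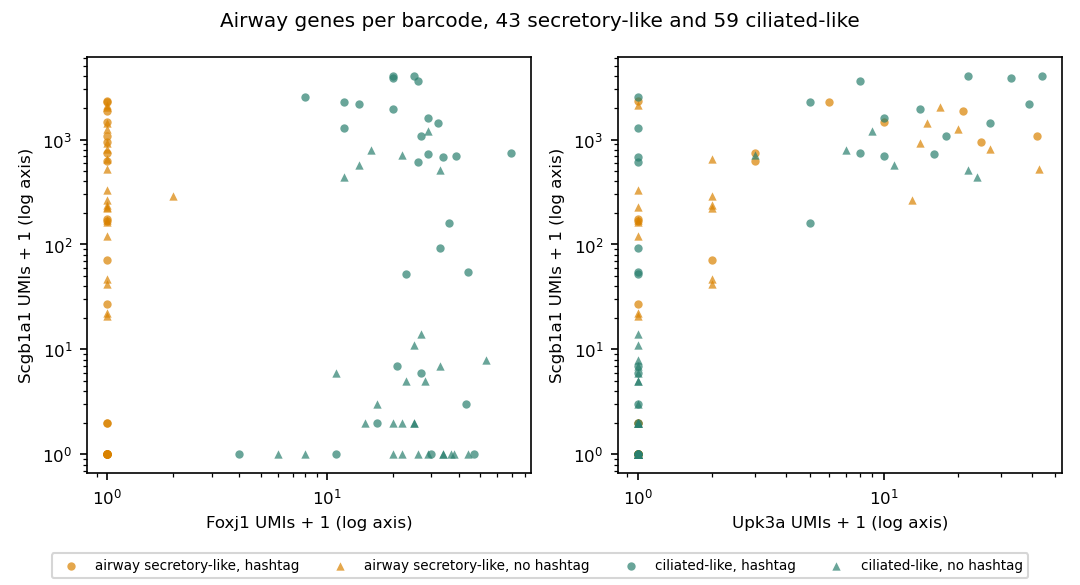
Scgb1a1 UMIs against Foxj1 UMIs (left) and Upk3a UMIs (right) for each barcode of the 43 secretory-like and 59 ciliated-like ones, all plus 1 on log axes, with circles for barcodes with a hashtag and triangles for those without. The ciliated-like barcodes form an upper group of 27 and a lower group of 32 at like Foxj1 counts, and only the upper group has Upk3a.

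The lists of other airway genes are given as a description only, since the subclusters were named from these same lists. Of the 23 airway secretory genes, 18 had a higher level in the 33 secretory-like barcodes than in the epithelial-like barcodes outside the airway subclusters. In the ciliated-like subcluster 18 of the 23 were higher as well. Cyp2f2, a cytochrome P450 of club cells, stood at 1606 against 25.0 UPM, Selenbp1 at 4773 against 1016 and Cldn10, a claudin of tight junctions, at 2353 against 296. Muc1, a membrane mucin, was nearly level at 432 and 420. All 20 ciliated genes were higher in the ciliated-like subcluster, for example Tubb4b at 5139 against 184 and Dynlrb2 at 2035 against 13.4 UPM.

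Across the 1310 epithelial-like barcodes, which share a library and differ in depth, the gene most like Scgb1a1 was Scgb3a2 (Pearson r = 0.92 of log-scaled levels), followed by Cyp2f2 (0.83) and the keratin Krt15 (0.81). Hp was most like Scgb3a2 (0.80) and Upk3a most like Krt15 (0.76). Foxj1 was most like 1110017D15Rik (0.94), and Krt19 most like Krt7 (0.81) and Hopx (0.80), of which Hopx marks alveolar type 1 cells. Krt19 and Scgb1a1 were nearly unrelated at 0.08. Cbr2 and Wfdc2 reached 0.57 with each other.

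Some airway barcodes were near copies of one another. Among 171 barcodes with airway RNA and at least 2000 UMIs, multiplets included, all 14462 pairs with enough shared genes were compared by a chi-square per gene, which is near 1 when 2 profiles differ by sampling alone and had a median of 13.5 here. In 25 pairs it was between 0.906 and 1.48, and the next pair stood at 1.65, so a limit of 1.5 was set after these values were seen. The pairs made 19 sets of 2 barcodes and 1 set of 4. Both barcodes of a pair had the same hashtag call in 23 of the 25 pairs. For instance, 2 singlets of PBS-2 held 739 and 625 Scgb1a1, 570 and 538 Cbr2 and 144 and 139 Wfdc2 UMIs. The 33 Scgb1a1-rich secretory-like barcodes were 25 when each set was taken once, and the 59 ciliated-like ones 56. No pair lay within the 27 ciliated-like barcodes rich in Scgb1a1.

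**Figure D3:**
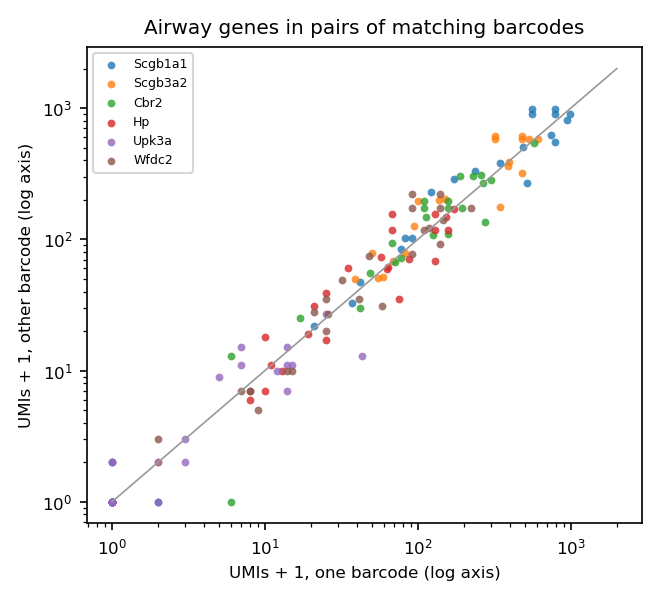
UMIs plus 1 of 6 genes in one barcode against the other barcode of each of the 25 pairs, on log axes, with the line of equal counts. Points follow the line over the whole range, as for the pair of PBS-2 with 739 and 625 Scgb1a1 UMIs.

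Airway barcodes were often without a litter. Of the 131 barcodes with 10 or more Scgb1a1 UMIs, 58 were singlets, 47 (35.9%) had no hashtag and 26 (19.8%) had several, against 23.1% and 7.07% of all passing barcodes. Their median depth was 26225 UMIs against 7935 over all. Missing hashtags were not particular to airway barcodes. Among barcodes with 10 or more UMIs of the surfactant gene Sftpc 44.4% had no hashtag, and so had 831 of the 1310 epithelial-like barcodes. What follows on litters rests on the singlets alone, which leaves those 831 out.

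ILC2-like cells and basophil or mast-like cells are not airway cells. Whether UMIs of the airway genes there came from free RNA, from doublets of the same litter or from the cells themselves was not tested. A Scgb1a1 UMI was seen in 5.84% of 2072 ILC2-like singlets and in 5.44% of 3439 basophil or mast-like ones (median depths 7196 and 7573), and also in 6.53% of 199 B-like ones (3528). These shares are near each other, but the B-like singlets were shallower, so like shares are not like levels. Without cells of 5 or more UMIs of an airway gene, Scgb1a1 stood at 7.46 UPM (6.24 to 8.85) in ILC2-like and 6.67 (5.81 to 7.63) in basophil or mast-like singlets. In B-like singlets it was 18.7 (10.2 to 31.3), on 14 UMIs. Sftpc, a surfactant gene used as the reference for free epithelial RNA, had a UMI in 77.2% and 71.9% of the first 2 classes.

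The summed level of Scgb1a1 in ILC2-like cells was 14.4 and 6.60 UPM for litters DEX-1 and DEX-2, and 53.6 and 9.61 UPM for litters PBS-1 and PBS-2. Most of the PBS-1 value came from 2 barcodes, with 82 and 101 Scgb1a1, 150 and 201 Scgb3a2, and 76 and 71 Cbr2 UMIs. They are one of the matching pairs above. Without the cells holding 5 or more UMIs of an airway gene the levels were 7.46, 6.63, 6.92 and 8.46, and their Poisson intervals overlapped, from 4.29 to 11.4 UPM in all. This left out 3, 1, 2 and 1 cells in the 4 litters. The filter used Scgb1a1 itself and kept it under 5 UMIs per cell, so likeness of the litters after it is no test.

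In basophil or mast-like cells Scgb1a1 stood at 28.7 UPM in DEX-1 and at 7.67, 6.72 and 5.77 in DEX-2, PBS-1 and PBS-2. A single DEX-1 barcode carried 141 of the 228 Scgb1a1 UMIs, 83 of the 114 Scgb3a2 UMIs and 179 of the 202 Cbr2 UMIs of that litter, beside 50 UMIs of the mast cell gene Cpa3. Without strong cells, by the same filter, DEX-1 stood at 6.13, inside the interval of each other litter.

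Cbr2 in these classes is given as a description, since a result on it was known when the genes were chosen. In ILC2-like cells it was 7.41, 1.32, 40.9 and 5.38 UPM in DEX-1, DEX-2, PBS-1 and PBS-2, and 2.99, 1.33, 3.33 and 5.00 without strong cells. The groups overlapped over all cells (DEX-1 above PBS-2) and not in the second reading. That reading rests on 5 to 26 UMIs per litter and on a filter that used Cbr2 itself. Separation was common, as 42.4% of the 10640 genes tested over all ILC2-like cells showed it in one direction or the other. In basophil or mast-like cells it was 25.4, 2.36, 2.01 and 2.47, and 1.70, 2.10, 1.79 and 2.53 without strong cells.

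**Figure D4:**
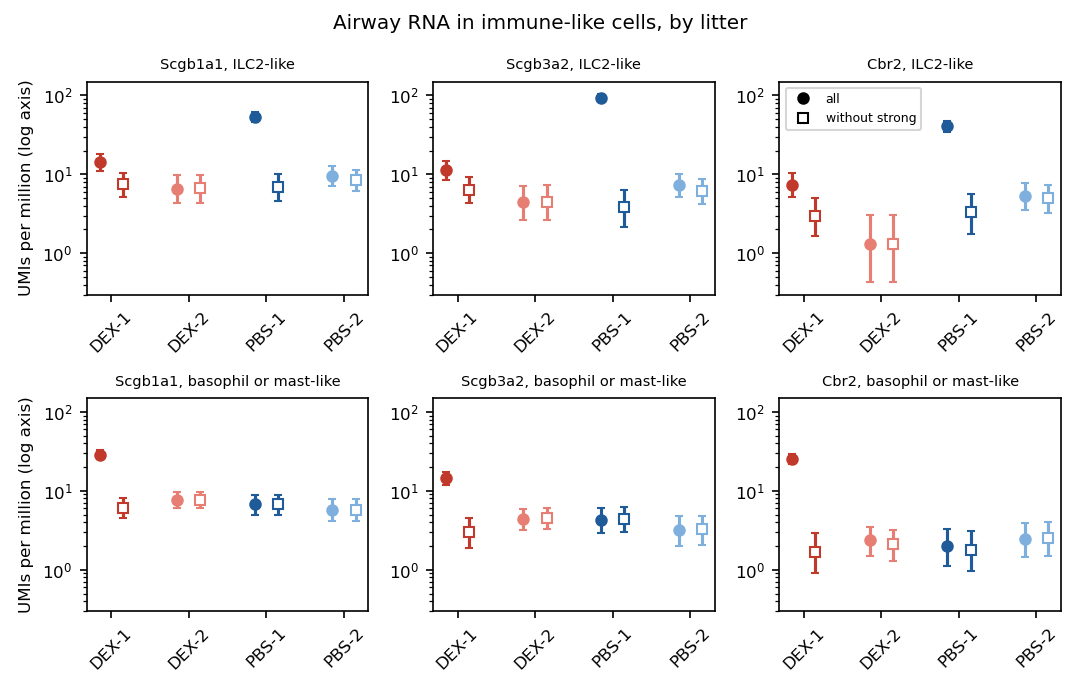
Level of Scgb1a1, Scgb3a2 and Cbr2 per litter in ILC2-like and basophil or mast-like singlets in UPM on a log axis, with filled circles for all cells, open squares without cells of 5 or more UMIs of an airway gene, and bars for the exact Poisson 95% interval. PBS-1 in the upper row (53.6 for Scgb1a1) and DEX-1 in the lower row (28.7) come down to the other litters in the open squares. The filter behind the open squares used these genes themselves.

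Airway RNA in immune-like singlets was also set against Sftpc. Over all cells there were 80.0 Scgb1a1 and 107 Scgb3a2 UMIs per 1000 Sftpc UMIs in ILC2-like and 47.1 and 25.3 in basophil or mast-like cells. Without strong cells, a filter that used Scgb1a1 and Scgb3a2 themselves, there were 29.9 Scgb1a1 UMIs per 1000 Sftpc UMIs in ILC2-like and 33.2 in basophil or mast-like cells, and 30.9 in the epithelial-like barcodes. For Scgb3a2 the values were 21.4, 19.1 and 18.5, and for Wfdc2 18.2, 16.3 and 13.2. B-like cells stood at 26.3, 9.38 and 5.63 for the 3 genes, on 14, 5 and 3 UMIs. Hp stood apart with 3.87 in ILC2-like, 43.1 in basophil or mast-like and 5.90 in epithelial-like barcodes, and 74 of 3513 basophil or mast-like barcodes had 3 or more Hp UMIs. The Hp level of basophil or mast-like cells was 23.4, 15.7, 22.7 and 22.1 UPM in DEX-1, DEX-2, PBS-1 and PBS-2.

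The next question was whether maternal DEX changed the airway genes. In the epithelial-like singlets of DEX-1 (100), DEX-2 (149), PBS-1 (131) and PBS-2 (99), UMIs were summed per litter and tested with edgeR over all genes. These singlets included 13, 24, 27 and 59 of subclusters 5, 6, 8 and 9. Leading genes of these 4 came from the endothelial, ILC2, mesenchymal and basophil or mast lists, in that order. Hp was the only one of the 8 to pass an adjusted p under 0.05, against 0.0354% of the 11312 genes tested in either direction. In these sums fewer airway cells and less RNA per cell cannot be told apart.

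Hp stood at 527 and 599 counts per 1000000 after TMM scaling of the litters (CPM) in DEX-1 and DEX-2 and at 1065 and 1127 in PBS-1 and PBS-2. The groups did not overlap, and Hp fell by 0.96 ± 0.10 (SE) on the log2 scale, with an edgeR adjusted p of 0.0282. Hp was also called by DESeq2 (-0.96, adjusted p = 1.3e-08), with a mitochondrial limit of 10% (-0.999, edgeR adjusted p = 0.0126) and without DEX-1 (-0.86, 0.0315). The call was lost at a like size with the litter number as a block (-0.96, edgeR adjusted p = 0.0879), with no filter on low genes (-0.96, 0.227), with finer clusters (-0.92, 0.191), without DEX-2 (-1.06, 0.590), without PBS-1 (-0.996, 0.224) and without PBS-2 (-0.92, 0.0819). With another caller of hashtags, MULTIseqDemux, the log2 difference itself was smaller, at -0.28 (edgeR adjusted p = 0.933). That caller gave PBS-2 483 epithelial-like barcodes in place of 99. DEX-1, DEX-2 and PBS-1 had 107, 210 and 139 in place of 100, 149 and 131.

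Cbr2 stood at 1376 and 1443 CPM in the DEX litters and at 2132 and 2447 in the PBS litters. The groups did not overlap here either, with a log2 difference of -0.70 ± 0.10, but the edgeR adjusted p was 0.0820. It passed with DESeq2 (-0.70, adjusted p = 9.24e-05) and with the mitochondrial limit of 10% (-0.72, edgeR adjusted p = 0.0327), and with MULTIseqDemux the log2 difference was -0.34 (edgeR adjusted p = 0.475). Foxj1 was the third gene without overlap, at 64.5 and 62.6 CPM against 67.0 and 87.5 (log2 difference -0.28 ± 0.15, edgeR adjusted p = 0.767). Such separation was common, as 37.1% of all genes tested showed it in one direction or the other.

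The secretoglobins overlapped between groups. Scgb1a1 was 3472.5 and 4974 CPM in DEX-1 and DEX-2 and 4300 and 6244 in PBS-1 and PBS-2 (log2 difference -0.32 ± 0.19, edgeR adjusted p = 0.788). Scgb3a2 was 2146, 3484, 1954 and 3570 in the same order (0.03 ± 0.28, edgeR adjusted p = 0.993).

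Upk3a had 36.3 and 23.1 CPM in the DEX and 33.0 and 62.0 in the PBS litters (log2 difference -0.71 ± 0.31, edgeR adjusted p = 0.740). Wfdc2 lay between 1414 and 1746 CPM and Krt19 between 709 and 918, with log2 differences of -0.09 ± 0.11 and -0.07 ± 0.13. For none of these 3 could a change be told from the spread between litters.

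**Figure D5:**
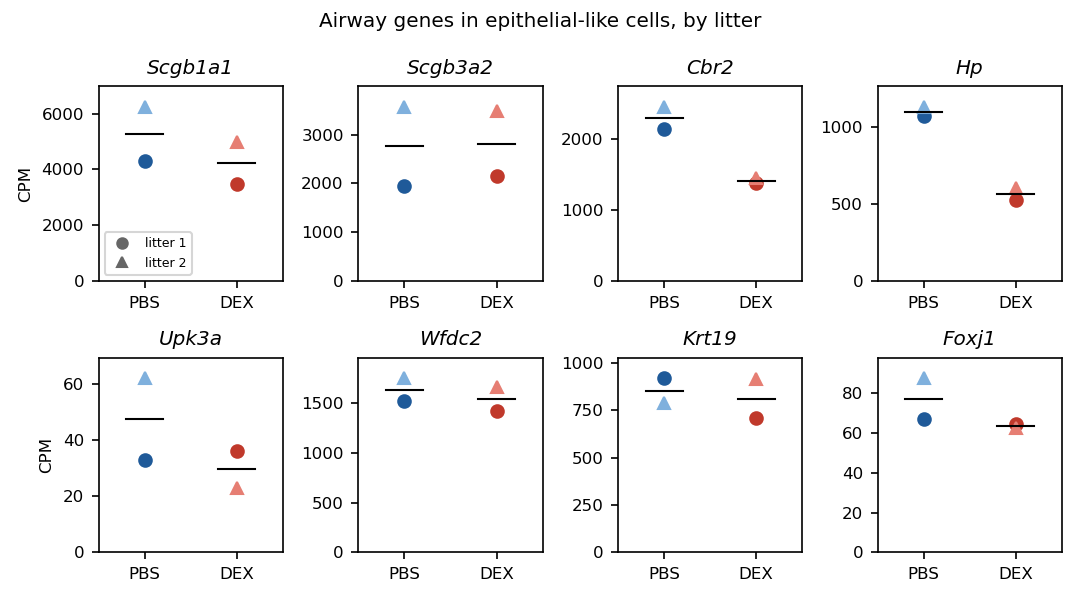
CPM of each of the 8 genes in epithelial-like singlets by group, with circles for the litter numbered 1, triangles for the litter numbered 2 and a bar at the mean of 2 litters. DEX and PBS litters do not overlap for Hp, Cbr2 and Foxj1, and both litters of a group lie close together for Hp (527 and 599 against 1065 and 1127 CPM).

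Hp of the epithelial-like class came from few barcodes. The barcodes of both airway subclusters or with 10 or more Scgb1a1 UMIs, called airway barcodes here, numbered 14 in each DEX litter and 13 and 16 in the PBS litters. Of these, 5 in DEX-1, 4 in DEX-2 and 1 in PBS-1 were the Scgb1a1-poor ones of the secretory-like subcluster. The airway barcodes held 90.3, 87.8, 91.4 and 96.4% of the Hp UMIs. A single barcode gave 41.4% of the airway Hp UMIs in DEX-1 and 19.2% in PBS-2. The Hp level in these barcodes was 2747, 3852, 6976 and 4700 UPM, and in the other epithelial-like barcodes 61.0, 80.8, 109 and 53.8, where the groups overlapped. Among the airway barcodes with 10 or more Scgb1a1 UMIs (8, 9, 10 and 12) it was 4389, 4775, 9078 and 5304.

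Cbr2 was at 6106, 7237, 9689 and 8648 UPM in the airway barcodes of DEX-1, DEX-2, PBS-1 and PBS-2 and at 379, 503, 924 and 591 in the others, a description with no test. In the airway barcodes with 10 or more Scgb1a1 UMIs it was 9958, 8986, 12911 and 9975. The 10 barcodes of the secretory-like subcluster without Scgb1a1 counted into the first of these sets. Their part in the differences was not tested.

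A pair of readings without airway barcodes was made after the data were seen. Leaving out both airway subclusters alone gave 3 of the 8 airway genes as called, with 8 calls among all genes tested, these 3 included. The log2 differences were -6.72 for Scgb1a1, -1.27 for Cbr2 and -1.98 for Hp (edgeR adjusted p = 5.19e-06, 0.0327 and 0.000487). The barcodes of 10 or more Scgb1a1 UMIs in other subclusters were all in PBS litters, as the count with them was 13 and 16 there and without them 9 and 14, against 14 and 14 either way in the DEX litters. A second reading therefore also left out barcodes with 10 or more Scgb1a1 UMIs. In it 6 of the 8 genes were tested, without Upk3a and Foxj1, and 0 were called, beside 1 call among all genes tested. Hp differed by -0.13 and Cbr2 by -0.72 there (edgeR adjusted p = 0.979 and 0.575). Scgb3a2 differed by 4.03 there (edgeR adjusted p = 0.612), as the DEX-2 barcode with 637 Scgb3a2, 33 Upk3a and 7 Scgb1a1 UMIs stayed in and held most of the 649 Scgb3a2 UMIs of its litter.

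The wider lists gave no edgeR call in the epithelial-like class. Of the airway secretory list 14 of 23 genes were tested, 0 were higher and 0 lower in DEX at an edgeR adjusted p under 0.05, and 0 had an unadjusted p under 0.05, with a median log2 difference of -0.21 beside -0.0037 over all genes. Of the ciliated list 20 of 20 were tested with 0 and 0 called, 4 at an unadjusted p under 0.05, and a median of -0.27. The AT2 and AT1 lists, with 9 of 9 genes tested in each, had 0 and 0 called as well, 3 and 0 at an unadjusted p under 0.05, and medians of 0.21 and -0.089. Over all genes, 760 of 11312 had an unadjusted edgeR p under 0.05. Dynlrb2, a dynein light chain, was at 134 and 144 CPM in DEX and 205 and 196 in PBS litters (log2 difference -0.52 ± 0.10, edgeR adjusted p = 0.381). Cyp2f2 was at 76.7, 139, 130 and 188 CPM in DEX-1, DEX-2, PBS-1 and PBS-2.

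In ILC2-like cells 5 of 7 genes passed the filter on low values and 0 were called, against 2.47% of 10640 genes in either direction. An unadjusted edgeR p under 0.05 was found for 2 of the 5, and for 1338 of the 10640 genes. Scgb1a1 had a log2 difference of -1.46 ± 0.55 and Scgb3a2 of -2.54 ± 0.77 (edgeR adjusted p = 0.244 and 0.124), and without PBS-1 these became 0.17 and 0.15. Both passed the threshold without DEX-2 or without PBS-2 (edgeR adjusted p = 0.000119 or lower), with the litter number as a block (2.88e-06 and 6.47e-10) and with no filter on low genes (1.25e-11 and 2.28e-37). None of the 5 was without overlap between groups, beside 42.4% of all genes. In basophil or mast-like cells 0 of 5 tested genes were called beside 0% of 11879 genes, with 649 genes at an unadjusted p under 0.05 and 16 called by DESeq2, none of them among the 8. Scgb1a1 had a log2 difference of 1.51 ± 0.58 there (edgeR adjusted p = 0.905, and 0.0369 without DEX-2), and 3 of the 5 did not overlap, beside 35.5% of all genes.

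Over all singlets, a reading that needs no cell classes, 0 of the 8 genes were called against 0.0194% of 15501 genes. Cbr2 was at 261 and 248 CPM in the DEX and 375 and 386 in the PBS litters (log2 difference -0.58 ± 0.06), and Hp at 101 and 108 against 188 and 172 (-0.78 ± 0.07), each with an edgeR adjusted p of 0.0692. DESeq2 called both, and without PBS-1 the edgeR adjusted p was 0.0488 for Cbr2 and 0.0447 for Hp. Of the 8 genes, 5 did not overlap between groups here, beside 45.8% of all genes. The lists of epithelial genes were lower in DEX too, with 0 genes called. Their median log2 differences were -0.28 for airway secretory, -0.27 for ciliated, -0.27 for AT2 and -0.30 for AT1 genes, beside -0.0037 over all genes. Sftpc differed by -0.36 ± 0.18. The part of the amount of epithelial RNA per litter in the values of Cbr2 and Hp was not tested.

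The share of singlets with airway RNA and that of epithelial-like cells could not be shown to differ between the groups. Singlets with 5 or more UMIs of Scgb1a1, Scgb3a2 or Cbr2 made up 4.38% of DEX-1 (95% Wilson interval 3.51 to 5.44%), 4.50% of DEX-2 (3.66 to 5.53%), 5.88% of PBS-1 (4.87 to 7.08%) and 6.56% of PBS-2 (5.53 to 7.77%). They were not airway barcodes alone, since Cbr2 was also high in subclusters 0, 2 and 3 and in the unnamed cluster described above. In that cluster 165 of 395 barcodes had 5 or more Cbr2 UMIs. Its 294 singlets count in this share and in the sums over all singlets, but not in the epithelial-like class. The difference of -1.78 percentage points had an exact permutation p of 0.333, the smallest that 2 litters against 2 allow. With MULTIseqDemux the shares were 3.38, 4.35, 5.25 and 12.0%, a difference of -4.75 points. With each cell thinned to 2000 UMIs and a limit of 3 UMIs, the shares were 1.64, 2.03, 2.70 and 2.05%, after 65 to 90 shallower cells per litter were left out. Epithelial-like cells made up 5.76, 7.89, 7.47 and 5.24% of singlets (difference 0.47 points, exact permutation p = 0.667).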

How the data were processed

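Fetal lung cells of 4 litters were sequenced as 1 pair of libraries, RNA and hashtags (10x 5′ chemistry). The authors deposited raw UMI counts per barcode, made with Cell Ranger 7 on mm10 per the labels' processing notes. Litters were read from the hashtags with HTODemux (Seurat 5.3.0, quantile 0.99), and barcodes with several hashtags were left out. No doublet caller was run, so doublets of the same litter were kept. Barcodes needed at least 200 genes and at most 5% mitochondrial UMIs. They were clustered with scanpy 1.11.5 on 2000 variable genes, 20 components, 15 neighbours and a Leiden resolution of 0.5, without the 8 airway genes. A cluster was named where at least 3 markers were seen in 25% of its barcodes, the 7 most widespread had a mean share of at least 30% and the next type reached at most 60% of it.

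UMIs summed per litter were tested with edgeR 4.0.16 (TMM, filterByExpr, quasi-likelihood, two-sided, Benjamini-Hochberg over all genes, threshold 0.05). SE is the log2 difference divided by the root of F. Shares were compared by an exact two-sided permutation test over litters. DESeq2 1.42.0 and other settings were alternatives. The scripts were tested on simulated data. Named genes were the 8 genes, Sftpc, the 10 genes of most UMIs in each airway list and up to 3 genes most like each of the 8. The genes and lists were chosen with earlier results of these data known, and the naming limits, Scgb1a1 splits and the limit for matching barcodes after values were seen. Gene positions came from GENCODE M21, which held 32158 of the 32285 gene IDs. Litters per group were 2, and p-values measure the spread between litters. Litter depth was 18665955 to 23660294 UMIs. Intervals and limits from a count of 0 (3 counts) cover counting error only.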

Additional observations from a re-analysis of the deposited data

Results flagged for a closer look

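Airway RNA lay partly in barcodes that enter no comparison of litters. Of the barcodes with 10 or more Scgb1a1 UMIs, 47 had no hashtag and 26 had more than 1. Of those with 10 or more Foxj1 UMIs, 28 had no hashtag and 7 had more than 1, out of 63. In 25 pairs of barcodes with airway RNA the chi-square per gene of the profiles was under 1.5, 10 of them with no hashtag on either barcode. Counted once, the 47 barcodes without a hashtag were 38 and the 58 singlets 55.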

How the results depend on the processing

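In epithelial-like cells 1 of the 8 genes was called. The count was 2 with DESeq2 (with or without the filter on low genes) and with a mitochondrial limit of 10%, 0 with edgeR and no filter, with the replicate block, with MULTIseqDemux, without cells of 5 or more UMIs of Scgb1a1, Scgb3a2 or Cbr2 and at Leiden resolution 1.0, and 0 to 1 with a litter left out. Among alternatives chosen after seeing the data it was 3 without the airway subclusters, 0 when barcodes of 10 or more Scgb1a1 UMIs also went, and 1 with matching barcodes counted once or without subclusters led by other cell types. Over all genes, 4 calls became 9 with DESeq2, 0 with no filter, with the block and at Leiden 1.0, 8 with MULTIseqDemux and without airway subclusters, 7 with the mitochondrial limit, 6 without strong cells, 1 without airway subclusters and barcodes of 10 or more Scgb1a1 UMIs and 0 to 20 with a litter left out. In ILC2-like cells 0 called became 4 with no filter, 3 with the block and 0 to 4 with a litter left out, and 263 genes became 126 with DESeq2 (109 with no filter), 518 with no filter, 553 with the block and 179 to 433 with a litter left out. In basophil or mast-like cells 0 became 1 with no filter and 0 to 1 with a litter left out, and 0 genes became 16 or 12 with DESeq2, 70 with no filter and 0 to 4 with a litter left out. Over all singlets 0 became 2 with DESeq2, no filter and the block and 0 to 2 with a litter left out, and 3 genes became 257 or 247, 881, 279 and 0 to 96.

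The replicate block used litter numbers that are only numbers. Deviations of same-numbered litters correlated at -0.096 in epithelial-like, 0.076 in ILC2-like, -0.021 in basophil or mast-like cells and 0.108 over all singlets, so they were not taken as pairs.

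The log2 difference turned sign with MULTIseqDemux for Scgb1a1 (0.55), Upk3a (0.24), Wfdc2 (0.12) and Foxj1 (0.59) in epithelial-like cells, Krt19 (-0.015) in ILC2-like cells and Scgb1a1 (0.021) over all singlets. Without strong cells it turned for Hp (0.72) and Wfdc2 (0.18) in epithelial-like cells, Scgb3a2 (0.11) and Wfdc2 (0.62) in ILC2-like cells and Scgb1a1 (0.10) over all singlets. Scgb3a2 in epithelial-like cells turned with the mitochondrial limit (-0.011), without airway subclusters (-2.05) and without subclusters of other types (-0.13). Upk3a turned without airway subclusters (0.19), Wfdc2 when barcodes of 10 or more Scgb1a1 UMIs also went (0.14), and Wfdc2 in basophil or mast-like cells at Leiden 1.0 (0.084). With a litter left out the ranges were -0.36 to 0.53 for Scgb3a2, -0.21 to 0.031 for Wfdc2 and -0.27 to 0.11 for Krt19 in epithelial-like cells, -2.29 to 0.17 for Scgb1a1, -3.50 to 0.15 for Scgb3a2, -2.99 to 1.35 for Hp, -1.34 to 0.64 for Wfdc2 and -0.12 to 1.01 for Krt19 in ILC2-like cells, -0.50 to 0.063 for Hp and -0.35 to 0.11 for Wfdc2 in basophil or mast-like cells, and -0.61 to 0.039 for Scgb1a1 and -0.19 to 0.47 for Scgb3a2 over all singlets. The difference in the share of singlets with 5 or more UMIs of Scgb1a1, Scgb3a2 or Cbr2 was -4.75 points with MULTIseqDemux, and that in epithelial-like share was -5.05 points with MULTIseqDemux and -0.648 to 1.59 with a litter left out. With a litter left out, the lone litter of its group was assumed to vary like the other group. The cause of these shifts was not tested.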
